A study of Nannochloropsis oceanica with 15 samples.

Results

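Close divergent gene pairs are adjacent genes of Nannochloropsis oceanica that point away from each other, with the left gene on the minus strand and the right gene on the plus strand, and whose models leave 0 to 300 nt between them. They were found by sorting the 9756 deposited gene models by scaffold and lowest exon start and reading each model with its right-hand neighbour. On the 29 scaffolds with at least 100 models, 8419 adjacent pairs were formed from 8448 models. Of these pairs 2867 were divergent, and 2072 of the divergent pairs had a gap of at most 300 nt. The 2072 pairs hold 4144 genes, which are 49.1% of the models on those scaffolds. They were set beside 189 divergent pairs with gaps over 1000 nt and 2512 convergent pairs, whose genes point towards each other, with gaps of 0 to 300 nt. A further 1498 same-strand pairs with gaps of 0 to 300 nt and all adjacent pairs served as background.

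Divergent neighbours have their 5′ ends facing each other across a common intergenic stretch. Where that stretch is short it can act as a bidirectional promoter, from which transcription starts in both directions, and in yeasts, plants and animals such partners are often, though by no means always, expressed together. Compact genomes hold many pairs of this kind, and short divergent stretches have been used to drive transgenes in Nannochloropsis.

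The alga is a single-celled marine oil producer, and RNA of the wild-type strain IMET1 was sequenced after cultures in column bioreactors under continuous light were switched from white light to red or blue light. There were 15 libraries in 5 groups, each with 3. The white 0 h group dates from the switch itself, and cells under either colour were sampled 12 h and 24 h later. None of the 15 libraries is from white light at those later hours. In every difference from white 0 h the colour and the time therefore cannot be told apart, whereas blue and red were compared at the same hour. All groups shared the strain, the genotype and the cultivation.

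The authors' values are FPKM, which relate a gene's fragments to the length of its model and the size of the library, and the fragments recovered from their steps numbered 3130000 to 6440000 per library. Red 24 h library 1 stood apart. Its fragments differed from those of red 24 h libraries 2 and 3 with a chi-square per degree of freedom of 52.0 and 84.5, against 5.32 between libraries 2 and 3 and 1.32 to 1.95 within the other groups. White 0 h library 1 had a median of 20.3 FPKM over all models, below the 24.7 and 25.0 of the other white libraries. Since all groups share 1 estimate of the spread, red 24 h library 1 touches every count of calls below, and the main counts are also given without it. Whether separate cultures lie behind the libraries of a group is not stated in the labels, and p-values therefore reflect only library-to-library spread, possibly a technical one. The labels do not say that the libraries kept the strand, and without it, reads from a gene and from an overlapping transcript of its neighbour cannot be told apart.

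The gaps between divergent genes had a sharply bounded distribution. In 861 of the 2072 close pairs, or 41.6%, exactly 94 nt lay between the models, only 2 pairs had a smaller gap, and the median was 114 nt, with quartiles of 94 and 174 nt. The gap ended in the digit 4 in 2064 pairs (from the commonest gap upwards in steps of 10 nt), and in 92.1% of the divergent pairs with gaps over 1000 nt. Among close convergent pairs the commonest last digit held 17% of the pairs and the smallest gap was 1 nt, and among close same-strand pairs it held 31.8% and the smallest gap was 45 nt. No adjacent models overlapped. The source column of the models names AUGUSTUS, a gene predictor, and the models so named were not counted. The gap is measured between the ends of the deposited models and not between mapped transcription starts.

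**Figure D1:**
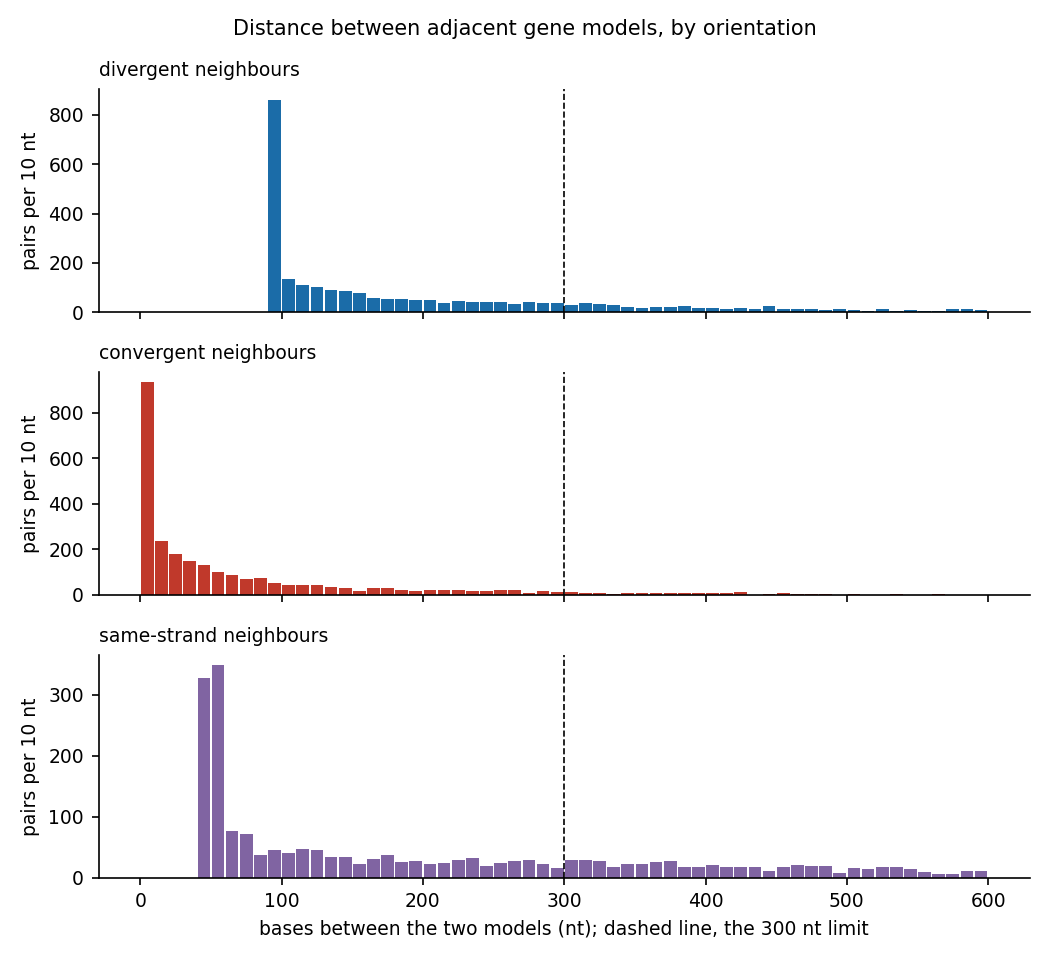
Number of adjacent pairs (vertical axes, pairs per bin of 10 nt) against the bases between the 2 models (horizontal axis, nt, shown to 600), for divergent, convergent and same-strand neighbours; the dashed line is the 300 nt limit. Divergent pairs start at 94 nt apart from 2 pairs, with 861 pairs at exactly that gap, while convergent pairs start at 1 nt and same-strand pairs at 45 nt.

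Close divergent pairs were spread over all 29 scaffolds. These held 30.4% to 58.6% of a scaffold's models, with a median of 48.3%, and numbered 19 to 153 per scaffold. The neighbour on the far side of a member was usually convergent with it: this held for 2841 of the 4144 members, while 1291 had a same-strand neighbour there and 12 lay at a scaffold end. Exons numbered 2 per member as a median, and 30.8% of members had 1 exon, against 28.6% in divergent pairs with gaps over 1000 nt and 34.6% in close convergent pairs.

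Nearly all members were expressed. A level of 1 FPKM or more was reached in 3 or more libraries by 4102 of the 4144 members, which left 2033 pairs with both genes tested, 36 with 1 and 3 with none. Members that missed this filter reached at most 2.09 FPKM in any library. The median level of the genes in these pairs was 23.0 FPKM in white 0 h and 25.3 FPKM in blue 24 h, against 24.6 and 24.7 over all adjacent pairs.

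Partners differed widely in level. Across the 2033 pairs, the correlation of the partners' levels on the log2(FPKM + 1) scale was 0.0765 in white 0 h, 0.183 and 0.124 in red at 12 h and 24 h, and 0.169 and 0.156 in blue. These are descriptions over pairs measured in the same libraries, and in white 0 h the value was 0.254 over the 179 divergent pairs with gaps over 1000 nt and 0.131 over close convergent pairs. The partners lay within 2-fold of each other in 931 pairs (45.8%) in white 0 h, and this share was 43.4% and 38.3% in red at 12 h and 24 h, and 40.1% and 39.5% in blue. In red 24 h it was 39.9% when library 1 was left out. Over all adjacent pairs the share was lower in each group: 44.4% in white 0 h, 39.5% and 35.6% in red, and 37.5% at both hours of blue. Close divergent partners were at least 10-fold apart in 153 pairs (7.53%) in white 0 h and in 250 pairs (12.3%) in blue 24 h. Over all adjacent pairs these shares were 8.80% and 15.2%. So the partners' levels lay further apart in every red and blue group than in white.

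The widening was visible library by library. The median absolute log2 ratio between partners was 1.12, 1.12 and 1.11 in the white libraries, 1.20, 1.18 and 1.21 in red 12 h, 1.32, 1.30 and 1.32 in blue 12 h, and 1.33, 1.29 and 1.29 in blue 24 h. It was 1.59, 1.35 and 1.27 in red 24 h. All 12 red and blue libraries lay above all 3 white ones, and red 24 h library 1 lay above all the others. All adjacent pairs widened too, from a median of 1.16 in white 0 h to 1.42 in blue 24 h, so the background widened as well. In 1569 of the 2033 pairs (77.2%) the same partner was the higher in all 5 groups, and this held for 1605 of 2032 pairs (79.0%) when red 24 h library 1 was left out. This was not counted in the other classes of pair.

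Gene by gene, the share of members that passed was close to that of all genes, and the share that fell was smaller. In red 12 h against white 0 h, 2263 of 4102 members (55.2%) passed limma's test at an adjusted p of 0.05, where 57.4% of all 9601 genes passed. In red 24 h, 2336 members (56.9%) passed against 58.9% of all genes, in blue 12 h 2278 (55.5%) against 58.5%, and in blue 24 h 2143 (52.2%) against 55.0%. In that order, the members called lower were 19.6%, 25.1%, 21.5% and 18.6%, against 24.6%, 30.1%, 26.1% and 23.9% of all genes. Those called at least 2-fold lower were 11.1%, 11.5%, 11.7% and 9.70% of members, against 15.9%, 16.8%, 16.5% and 14.6% of all genes. Members called higher were 35.6%, 31.9%, 34.1% and 33.6%, against 32.8%, 28.8%, 32.3% and 31.1%, and those at least 2-fold higher 8.36%, 9.73%, 7.58% and 8.24%, against 8.88%, 9.57%, 8.27% and 8.50%. A smaller share of members than of all genes was thus called lower and a larger share higher, the latter not for calls of at least 2-fold in 3 of the 4 comparisons, and neither difference was tested. When red 24 h library 1 was left out, 2949, 2682, 2927 and 2869 of 4101 members passed (71.9%, 65.4%, 71.4% and 70.0%), against 73.2%, 67.2%, 73.1% and 71.2% of all genes. Those called lower were then 24.4%, 24.0%, 25.8% and 24.3%, against 29.3%, 29.5%, 30.7% and 29.4%. These shares move with the scaling: with libraries scaled to the same FPKM sum without the 50 most abundant genes, higher calls were 33.2% of the members' calls in red 24 h against white 0 h, where they were 56.0% as deposited.

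Both partners moved together in a share of pairs near that of all adjacent pairs and above that of close convergent pairs. In red 12 h, 496 of the 2033 pairs (24.4%) had both genes called in the same direction, where 22.7% of all adjacent pairs did. Both rose in 341 pairs (16.8%, against 13.8%) and both fell in 155 (7.62%, against 8.93%). The count was 451 (22.2%) in red 24 h against 21.8% of all adjacent pairs, 504 (24.8%) in blue 12 h against 23.1%, and 462 (22.7%) in blue 24 h against 21.4%. Both rose in 247, 322 and 316 of these pairs (12.1%, 15.8% and 15.5%), against 10.1%, 13.3% and 12.8% of all adjacent pairs, and both fell in 204, 182 and 146 (10.0%, 8.95% and 7.18%), against 11.6%, 9.75% and 8.55%. Close convergent pairs gave 19.0%, 18.5%, 19.4% and 18.3%, lower than close divergent pairs in all 23 settings of each comparison with white. None of these settings asked for a fold minimum. With 2-fold changes of both genes asked for, the share in red 24 h was larger in close convergent pairs. Divergent pairs with gaps over 1000 nt gave 25.1%, 26.8%, 25.7% and 24.6% at any fold change. The counts were 803, 666, 774 and 743 when red 24 h library 1 was left out, and the share in red 12 h was then 39.5% against 35.2% of all adjacent pairs and 34.1% of the divergent pairs with gaps over 1000 nt. In each of the 4 comparisons, close divergent pairs thus lay below distant ones in the main fit and above them without that library. Over the 23 settings they lay above distant ones in 4, 2, 4 and 3, some of which kept that library. The order thus did not turn on that library alone. White 0 h library 1 also bore on the rising pairs: when it was left out, both genes rose in 214 pairs in red 12 h, and in 194 and 204 pairs at the 2 hours of blue light.

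In the comparisons with white, partners moving apart were less common in close divergent pairs than in any other class described here. The genes of a pair were called in opposite directions in 163 pairs (8.02%) at 12 h and 200 (9.84%) at 24 h of red light, and in 170 (8.36%) and 149 (7.33%) at those hours of blue light. Of all adjacent pairs, 12.4%, 14.1%, 13.1% and 11.7% did so. Close convergent pairs gave 14.6%, 16.9%, 15.5% and 13.5%, divergent pairs with gaps over 1000 nt gave 14.0%, 14.5%, 15.6% and 12.3%, and close same-strand pairs gave 12.5%, 14.7%, 12.5% and 11.7%. When red 24 h library 1 was left out, opposite calls numbered 297, 245, 305 and 292 of 2032 close divergent pairs, while 20.5%, 17.9%, 20.9% and 19.7% of all adjacent pairs had them. The share of close divergent pairs in red 12 h was then 14.6%. The smaller share of members called lower moves with this result, and its part in it was not tested. The classes were compared by these counts and not by a test.

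**Figure D2:**
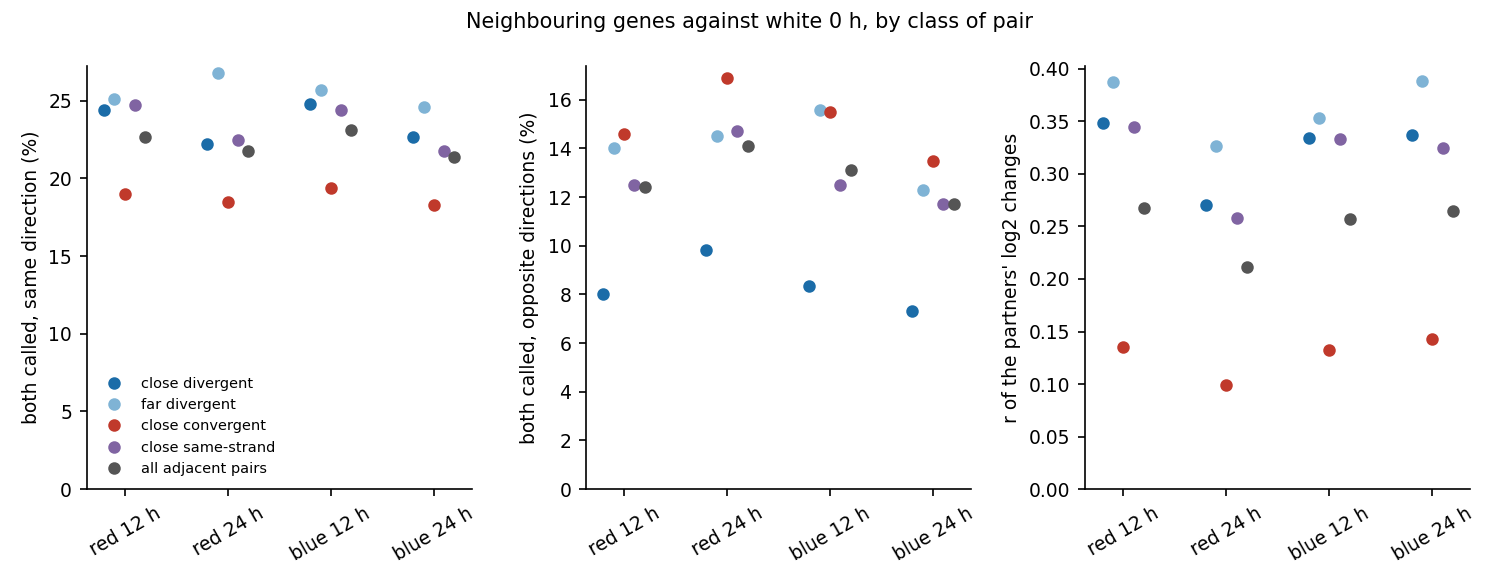
Share of pairs with both genes called in the same direction (left, %), in opposite directions (middle, %) and Pearson's r of the partners' log2 changes (right), for each colour and time against white 0 h; each point is 1 class of pair. Close divergent pairs have the lowest share of opposite calls in all 4 comparisons (7.33% to 9.84%), while their r lies below that of distant divergent pairs (in red 24 h only with library 1, 0.326 against 0.324 without it) and above that of close convergent pairs.

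The sizes of the partners' changes were related, but not more closely than in some other classes. Across the 2033 pairs, the Pearson correlation of the left and right genes' log2 changes was 0.348 and 0.270 in red at 12 h and 24 h, and 0.334 and 0.337 in blue. In the same order it was 0.135, 0.0989, 0.132 and 0.143 in close convergent pairs, 0.345, 0.258, 0.333 and 0.325 in close same-strand pairs, and 0.387, 0.327, 0.353 and 0.388 in divergent pairs with gaps over 1000 nt. The 4 values share the white libraries, and the changes of all pairs come from the same libraries. Leaving out red 24 h library 1 gave 0.326 for red 24 h, and 0.324 in the distant divergent pairs. Close divergent partners nonetheless differed less in size, with a median absolute difference between their log2 changes of 0.50 in red 12 h, against 0.84 in distant divergent pairs, 0.69 in close convergent pairs and 0.64 in all adjacent pairs. Single genes also changed less there, with a median absolute log2 change of 0.50 in close and 0.67 in distant divergent pairs in red 12 h.

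**Figure D3:**
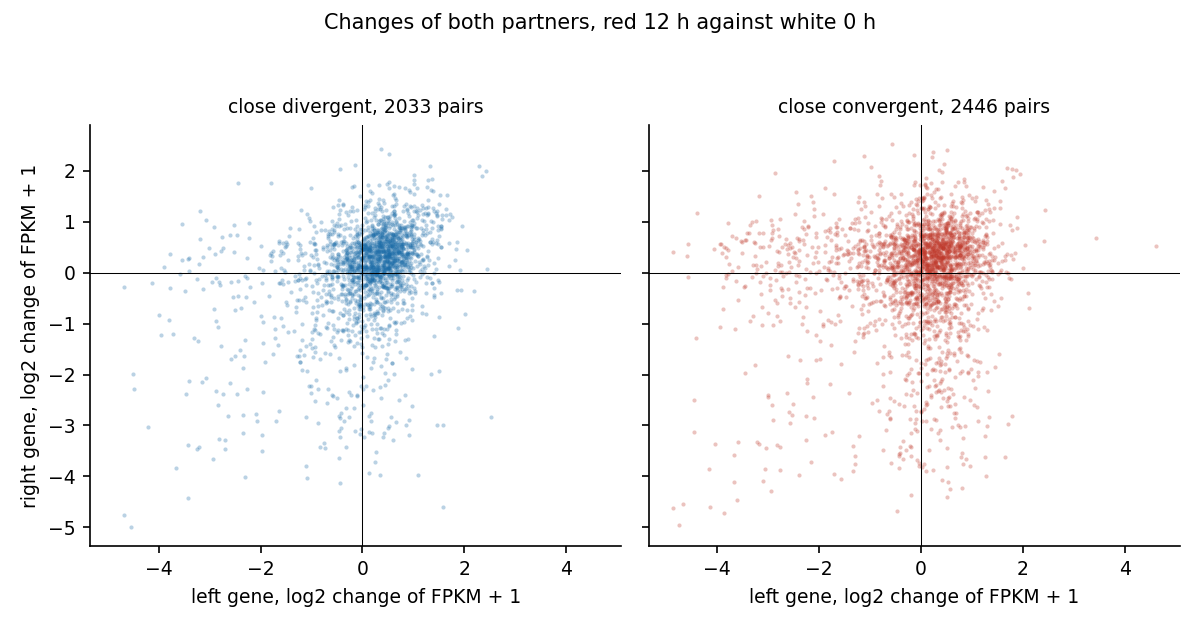
Log2 change of FPKM + 1 of the right gene (vertical axis) against that of the left gene (horizontal axis) in red 12 h against white 0 h, for 2033 close divergent pairs and 2446 close convergent pairs; each point is a pair with both genes tested. Points where a gene fell strongly while its partner hardly moved lie along the axes in both panels, and r is 0.348 for the divergent and 0.135 for the convergent pairs.

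Each member could also be set against its own neighbours. Over 4002 members, the log2 change in red 12 h had a correlation of 0.347 with that of the divergent partner and of 0.121 with that of the gene on the other side. These values were 0.270 and 0.0933 at 24 h in red, and 0.333 and 0.119, then 0.336 and 0.113, at 12 h and 24 h in blue. Where the other neighbour was on the same strand, its value in red 12 h was 0.193, and where it was convergent, 0.0840. A member and its divergent partner were called in opposite directions in 8.07% of cases in red 12 h, and a member and its other neighbour in 13.5%. These were 14.6% and 22.4% when red 24 h library 1 was left out. In each of the 4 comparisons with white, with and without that library, r was higher and opposite calls were fewer with the partner across the short gap than with the gene on the other side. That other gene was taken at any gap and was convergent for 2755 of the 4002 members. The 2 sides thus differ in gap as well as in orientation, and these cannot be told apart here.

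The behaviour of the partners was also followed by the size of the gap. At a gap of 94 nt (844 pairs with both genes tested), r of the changes was 0.304 in red 12 h and ran from 0.230 to 0.304 over the 4 comparisons with white. At 95 to 150 nt (514 pairs) it ran from 0.403 to 0.512, at 151 to 200 nt (283 pairs) from 0.149 to 0.227 and at 201 to 300 nt (390 pairs) from 0.232 to 0.316. Rank correlations ran from 0.204 to 0.328, from 0.352 to 0.417, from 0.171 to 0.234 and from 0.230 to 0.282 in the same order of gaps. In each comparison the 95 to 150 nt pairs had the highest r of these 4 gap classes, with and without red 24 h library 1. Beyond the limit r ran from 0.318 to 0.384 at 301 to 500 nt, from 0.361 to 0.439 at 501 to 1000 nt and from 0.327 to 0.388 above 1000 nt.

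The share of genes that fell was larger beyond the limit than within it. Genes called at least 2-fold lower were 11.5% to 13.5% over the 4 comparisons at a gap of 94 nt, 8.75% to 10.5% at 95 to 150 nt, 7.60% to 10.8% at 151 to 200 nt and 7.95% to 10.5% at 201 to 300 nt. Past the limit they were 15.7% to 18.7% at 301 to 500 nt, 24.0% to 26.5% at 501 to 1000 nt and 23.2% to 24.9% above 1000 nt. Opposite calls were 7.94% to 10.5% at 94 nt, 5.45% to 8.17% at 95 to 150 nt, 8.83% to 11.0% at 151 to 200 nt and 6.92% to 9.74% at 201 to 300 nt, and 11.6% to 17.5% in the classes above 300 nt. Just inside the limit, at 276 to 300 nt, 7.25% of 69 pairs had opposite calls in red 12 h, and just outside, at 301 to 325 nt, 13.8% of 94 pairs. Genes called at least 2-fold lower were 13.8% just inside and 12.2% just outside, so that share did not step up at the limit itself. With red 24 h library 1 left out, genes at least 2-fold lower in red 24 h were 7.59% at 95 to 150 nt, 7.82% at 201 to 300 nt and 22.3% above 1000 nt.

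**Figure D4:**
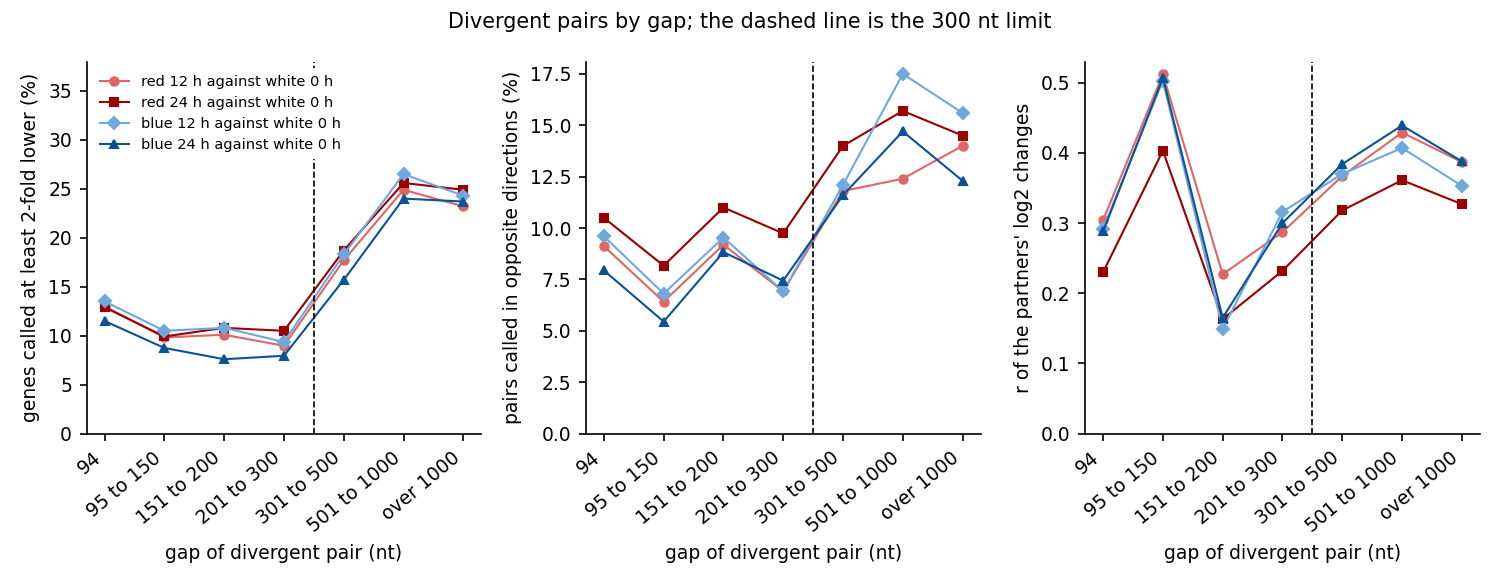
Divergent pairs by gap (horizontal axes, nt): genes called at least 2-fold lower (left, %), pairs called in opposite directions (middle, %) and r of the partners' log2 changes (right), with 1 line for each colour and time against white 0 h; the dashed line is the 300 nt limit. Genes at least 2-fold lower are 13.5% or fewer in every class up to 300 nt and 23.2% or more above 500 nt, while r is highest at 95 to 150 nt.

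A direct test of the partner ratio showed that many close pairs did not keep their proportions. Limma's test of the right gene's log2 level less the left gene's, over all 8212 adjacent pairs with both genes tested, passed in 907 close divergent pairs (44.6%) in red 12 h, where 53.4% of all adjacent pairs passed. It passed in 1169 (57.5%) in red 24 h against 62.5%, in 969 (47.7%) in blue 12 h against 54.9%, and in 942 (46.3%) in blue 24 h against 53.9%. Leaving out red 24 h library 1 gave 1299, 1244, 1333 and 1329 pairs, or 63.9%, 61.2%, 65.6% and 65.4%, against 68.7%, 67.4%, 69.9% and 69.4%. So a change of the partner ratio was common, though the share was smaller than over all adjacent pairs in each comparison, also without that library.

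The pairs in which both genes rose or fell in all 4 comparisons with white, with no red or blue library overlapping the white ones and with each gene's group mean reaching 10 FPKM somewhere, numbered 94 rising and 66 falling. The rising pairs lay on 27 scaffolds, and their genes went from a median of 28.0 FPKM in white 0 h to 52.7 at 12 h of red and 55.5 at 24 h of blue light. The falling pairs lay on 25 scaffolds, and their genes went from 37.2 FPKM in white 0 h to 8.63 at 12 h of red and 8.64 at 24 h of blue light. A gap of 94 nt was found in 34.0% of the rising pairs and in 33 of the 66 falling pairs, beside 41.6% of all close divergent pairs. With red 24 h library 1 left out, 269 rising and 91 falling pairs met these conditions. The rule was applied to close divergent pairs only, so these counts have no background share beside them. It asks for these changes, so they are descriptions.

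Leading the rising pairs was one on scaffold00080, with the 134 nt at 421334 to 421467 between its genes. The files pair the gene IDs with no names, so no role is stated for any member. The minus-strand gene scaffold00080.g2619 lies at 420449 to 421333 and has 2 exons. It measured 31.4, 41.9 and 51.1 FPKM in white 0 h, 221.7, 221.0 and 222.8 after 12 h and 374.7, 323.8 and 356.7 after 24 h of red light, and 241.0, 227.5 and 252.7 after 12 h and 349.4, 328.8 and 341.6 after 24 h of blue light. Its libraries in red and blue light were all above the white ones, and the 24 h libraries of each colour were above its 12 h libraries.

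The partner scaffold00080.g2620 lies at 421468 to 422012 on the plus strand with 1 exon. It measured 4.38, 6.02 and 1.97 FPKM in white 0 h, 20.5, 15.1 and 19.5 after 12 h and 10.7, 18.9 and 22.2 after 24 h of red light, and 21.6, 25.1 and 25.6 after 12 h and 22.5, 21.2 and 22.7 after 24 h of blue light. All red and blue libraries again lay above the white ones, which rest on 4 to 17 fragments each. On the log2(FPKM + 1) scale, scaffold00080.g2619 rose by 2.42 ± 0.14 (SE, limma, adjusted p = 1.35e-09) in red 12 h and by 3.03 ± 0.14 (adjusted p = 1.24e-10) in blue 24 h, with 3 libraries per group. For scaffold00080.g2620 the changes were 2.00 ± 0.28 (adjusted p = 2.05e-05) and 2.26 ± 0.28 (adjusted p = 5.89e-06). The log2 ratio of the right to the left gene changed by -1.21 ± 0.36 in red 24 h (limma, adjusted p = 0.0104), and by -0.88 ± 0.34 (adjusted p = 0.0359) without red 24 h library 1. In red 12 h it changed by -0.42 ± 0.36 (adjusted p = 0.358), and blue against red passed for neither gene at either hour (adjusted p from 0.323 to 0.824).

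Leading the falling pairs was one on scaffold00295, with 114 nt at 629359 to 629472 between a pair of long models. The minus-strand gene scaffold00295.g8547, at 622338 to 629358 with 5 exons, measured 11.4, 13.8 and 14.8 FPKM in white 0 h, 0.550, 0.359 and 0.576 after 12 h and 0.426, 1.10 and 1.20 after 24 h of red light, and 0.519, 0.588 and 0.535 after 12 h and 0.554, 0.503 and 0.267 after 24 h of blue light. The plus-strand gene scaffold00295.g8548, at 629473 to 639240 with 3 exons, measured 19.8, 24.6 and 25.1 FPKM in white 0 h, 1.11, 1.15 and 1.26 after 12 h and 0.626, 1.02 and 1.84 after 24 h of red light, and 1.84, 1.56 and 1.27 after 12 h and 0.907, 0.841 and 0.591 after 24 h of blue light. Every white library of both genes was several times higher than every red or blue library, and the groups did not overlap.

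Mean FPKM of scaffold00295.g8547 was 26.9-fold lower in red 12 h and 30.2-fold lower in blue 24 h than in white 0 h, and that of scaffold00295.g8548 was 19.7-fold and 29.7-fold lower. With limma, the changes in red 12 h were -3.26 ± 0.19 (SE, adjusted p = 1.35e-09) for scaffold00295.g8547 and -3.47 ± 0.20 (adjusted p = 1.10e-09) for scaffold00295.g8548 on the log2(FPKM + 1) scale, which understates the change of genes near 1 FPKM. On that scale their log2 ratio, right to left, changed by -0.21 ± 0.13 in red 12 h (adjusted p = 0.210). In red 24 h it changed by -0.59 ± 0.13 (adjusted p = 0.00201). By mean FPKM the left gene fell more than the right in red 12 h, opposite to the sign of the -0.21. That sign thus depends on the 1 added to values near 1 FPKM. At 24 h blue was lower than red by mean in both genes, and the test passed in neither (adjusted p = 0.170 and 0.378).

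**Figure D5:**
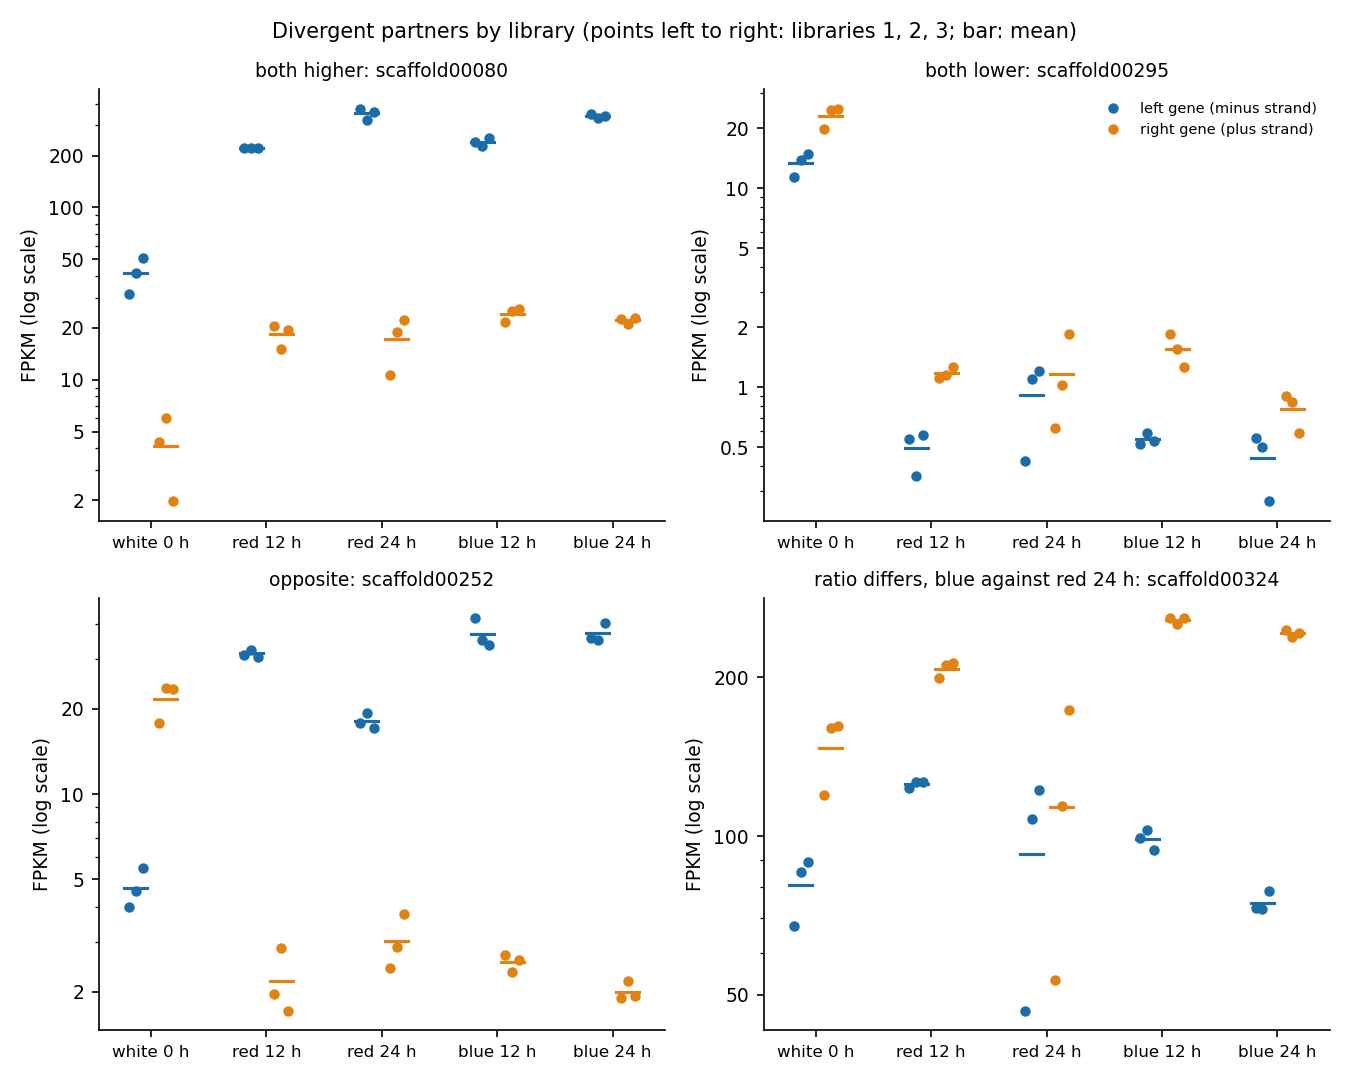
FPKM (log axis) by group for the left, minus-strand gene (blue) and the right, plus-strand gene (orange) of 4 close divergent pairs; points are the 3 libraries of a group, from left to right libraries 1, 2 and 3, and bars are their means. Both genes rise together at scaffold00080, fall together at scaffold00295 and exchange places at scaffold00252, and at scaffold00324 red 24 h library 1 lies lowest for both genes.

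The next 4 rising pairs included genes of very unequal level. At scaffold00330, 145093 to 145216, the left gene went from 191.6 ± 27.1 FPKM (SD, n = 3) in white 0 h to 1128.6 ± 49.2 in blue 24 h, and the right gene from 18.7 ± 2.57 to 56.6 ± 2.14. Their log2 ratio changed there by -1.01 ± 0.14 (SE, limma, adjusted p = 2.38e-05), so the pair rose together but not in proportion. At scaffold00252, 249518 to 249721, the left gene went from 9.91 ± 1.58 to 42.1 ± 1.26 FPKM and the right gene from 1.40 ± 0.127 to 10.1 ± 1.18. The ratio change there was 0.22 ± 0.23 on the log2(FPKM + 1) scale (adjusted p = 0.467). That scale understates the rise of the right gene, which was near 1 FPKM in white. By mean FPKM the right gene rose by the larger factor, so a rise in proportion is not shown. The other pairs lay at scaffold00259, 288706 to 288809, and scaffold00341, 419358 to 419451. In both, all red and blue libraries were above the white ones by the rule.

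Among the next 4 falling pairs, 2 lay close to each other on scaffold00295, at 1102026 to 1102139 and at 1119906 to 1120039. In the former, the left gene fell from 101.6 ± 10.3 FPKM (SD, n = 3) in white 0 h to 3.36 ± 0.274 in red 12 h and measured 15.4 ± 0.564 in red 24 h, and the right gene fell from 96.3 ± 7.52 to 2.05 ± 0.192 and measured 9.06 ± 3.18. In blue light the left gene measured 3.63 ± 0.572 at 12 h and 5.42 ± 0.783 at 24 h. At 24 h, the log2 difference of blue from red was -1.36 ± 0.14 (SE, limma, adjusted p = 4.88e-05) for the left and -1.23 ± 0.19 (adjusted p = 0.000910) for the right gene. The pairs at 1119906 to 1120039, at scaffold00026, 790551 to 790644, and at scaffold00043, 283782 to 283875, also had both genes lower in blue than in red at 24 h. So in all 4 of these pairs both partners had higher levels in red 24 h than in blue 24 h, and all 8 of these calls also passed without red 24 h library 1. None of the 4 ratios passed in blue against red at 24 h, with adjusted p from 0.0952 to 0.684.

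Partners in opposite directions in all 4 comparisons with white, with the ratio passing in each, numbered 57, and 123 without red 24 h library 1. Pairs of the other classes were not counted by this rule, so no background share is given. The rising gene of these pairs had a median of 23.7 FPKM in white 0 h and 41.5 in red 12 h, and the falling gene 23.4 and 6.01. The minus-strand gene was the riser in 32 pairs and the plus-strand gene in 25. In 21 of them, or 36.8%, the gap was 94 nt.

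The opposed pair with the largest change of ratio by its mean over the 4 comparisons lay on scaffold00252, with 94 nt at 70912 to 71005 between its genes. Its left gene measured 3.99, 4.53 and 5.46 FPKM in white 0 h, 31.1, 32.4 and 30.6 after 12 h and 17.8, 19.3 and 17.1 after 24 h of red light, and 41.9, 35.0 and 33.7 after 12 h and 35.6, 35.0 and 40.3 after 24 h of blue light. Its right gene measured 17.8, 23.6 and 23.5 in white 0 h, 1.97, 2.85 and 1.72 after 12 h and 2.44, 2.89 and 3.77 after 24 h of red light, and 2.70, 2.35 and 2.59 after 12 h and 1.90, 2.18 and 1.94 after 24 h of blue light. The gene that was lower in white was the higher in every red and blue library, with no overlap of either gene with white. The log2 ratio of the right to the left gene changed by -5.36 ± 0.17 in red 12 h (SE, limma, adjusted p = 2.80e-11) and by -5.66 ± 0.17 in blue 24 h (adjusted p = 2.61e-11).

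In the other 4 of the 5 leading opposed pairs the left gene also rose and the right gene fell. At scaffold00043, 665999 to 666092, the left gene went from 130.8 ± 15.5 FPKM (SD, n = 3) in white 0 h to 391.0 ± 6.41 in red 12 h and the right gene from 167.5 ± 16.0 to 6.01 ± 1.31. The log2 ratio of that pair changed by -6.18 ± 0.25 in red 12 h (SE, limma, adjusted p = 2.04e-10), more than at scaffold00252. The left gene measured 1725.3 FPKM in red 24 h library 1, against 529.4 and 412.4 in the others. At scaffold00247, 316294 to 316387, the right gene went from 28.5 ± 4.77 FPKM to 0.858 ± 0.203 in red 12 h while the left gene went from 10.7 ± 1.55 to 24.0 ± 1.34. The pairs at scaffold00324, 694345 to 694548, and scaffold00080, 82734 to 82927, had ratio changes of -4.47 ± 0.27 (SE, limma, adjusted p = 7.78e-09) and -4.58 ± 0.29 (adjusted p = 1.11e-08) in red 12 h. A gap of 94 nt thus separated genes that moved in opposite directions as well as genes that moved together.

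How many members differed between blue and red light at the same hour depended on single libraries. At 12 h, 109 of 4102 members (2.66%) passed, where 2.76% of all genes did. Of these, 29 (0.707% of members) were higher and 80 (1.95%) lower in blue, against 0.719% and 2.04% of all genes. Leaving out red 24 h library 1 gave 666 members (16.2%, against 16.1% of all genes), and leaving out 1 library of red 12 h or blue 12 h gave 28 to 40. Both genes passed in the same direction in 4 pairs (0.197%), all lower in blue, against 0.134% of all adjacent pairs, of which 0.0244% were both higher and 0.110% both lower. At 24 h, 381 members (9.29%) passed against 12.0% of all genes, 198 (4.83%) higher and 183 (4.46%) lower in blue, against 5.67% and 6.34%. This became 257 higher and 354 lower without red 24 h library 1, 350 and 212 without library 2, and 854 and 487 without library 3, and 119 to 131 members in all without 1 of the blue 24 h libraries. In 30 pairs (1.48%) both genes passed in the same direction, against 1.61% of all adjacent pairs, 17 higher (0.836%, against 0.743%) and 13 lower (0.639%, against 0.865%). Same-direction pairs numbered 72 at 12 h and 58 at 24 h when red 24 h library 1 was left out. Leaving out other libraries moved these counts too, from 0 to 72 at 12 h and from 7 to 137 at 24 h, so their size rests on single libraries. The 137 pairs came without red 24 h library 3, and without any 1 of the blue 24 h libraries 7 to 9 pairs were left at 24 h. Opposite calls numbered 0 at 12 h, against 0.0122% of all adjacent pairs, and 9 (0.443%) at 24 h, against 0.548%, and 16 at each hour when red 24 h library 1 was left out. Shares of all adjacent pairs moved with the setting as well. Over the 23 settings same-direction calls reached 6.64% at 12 h and 6.74% at 24 h, beside 5.44% and 7.26% of all adjacent pairs. Opposite calls reached 2.31% and 4.53%, beside 2.92% and 5.52%.

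The ratio between partners differed between blue and red in 69 pairs (3.39%) at 12 h, where 4.66% of all adjacent pairs passed, and in 214 pairs (10.5%) at 24 h, where 15.1% did. These counts were 391 and 317 with red 24 h library 1 left out. The share over all adjacent pairs moved with the setting too. Over the 23 settings it ran from 1.99% to 21.4% at 12 h, beside 1.18% to 19.2% of close divergent pairs. At 24 h it reached 40.5%, beside 36.9% of close divergent pairs. Each of the 3 libraries of blue 12 h and of red 12 h lowered the former count when left out, to between 24 and 37 pairs. At 24 h, leaving out red 24 h library 3 gave 750 pairs, and leaving out a blue 24 h library gave 90 to 107.

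The 3 pairs with the smallest adjusted p at 12 h had a left gene that was lower in blue. At scaffold00341, 205648 to 205741, the left gene measured 24.7, 25.9 and 25.8 FPKM in red 12 h and 9.36, 7.65 and 10.4 in blue 12 h, while the right gene measured 63.5, 63.5 and 62.6 in red and 61.0, 63.2 and 62.2 in blue. The left gene's libraries did not overlap, and the right gene's lay within 61.0 to 63.5. The right gene relative to the left was higher in blue by 1.37 ± 0.18 on the log2 scale (SE, limma, adjusted p = 0.000868). At scaffold00069, 387209 to 387302, this difference was 1.52 ± 0.18 (adjusted p = 0.000477), and at scaffold00104, 363971 to 364074, it was 0.99 ± 0.11 (adjusted p = 0.000474). These pairs were chosen by that p, so the values describe them.

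At 24 h the leading pair was at scaffold00324, 611355 to 611448. Its left gene measured 46.7, 107.9 and 122.5 FPKM in red 24 h and 73.1, 72.8 and 78.6 in blue 24 h, and its right gene 53.4, 114.3 and 173.2 in red and 246.0, 238.9 and 242.8 in blue. Within red 24 h both genes were lowest in library 1, and all blue libraries of the right gene lay above all red ones. The right gene relative to the left was higher in blue by 1.43 ± 0.12 on the log2 scale (SE, limma, adjusted p = 2.70e-05), and by 1.39 ± 0.12 (adjusted p = 8.64e-06) without that library. At scaffold00295, 1042856 to 1042949, the left gene measured 44.8, 33.1 and 25.8 FPKM in red and 10.4, 11.2 and 11.3 in blue, while the right gene measured 45.7, 30.4 and 22.9 in red and 27.0, 24.5 and 28.3 in blue. In the pair at scaffold00341, 356858 to 357011, the left gene was higher and the right gene lower in blue, with a ratio difference of -1.85 ± 0.18 (adjusted p = 5.67e-05).

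The close divergent pair with the highest level of its lower partner lay at scaffold00082, 205871 to 205964. Its left gene measured 500.9, 563.2 and 591.0 FPKM in white 0 h and 919.8, 906.1 and 946.1 in blue 24 h, and its right gene 381.5, 464.3 and 466.7 in white and 691.1, 695.4 and 709.5 in blue 24 h. Both were higher in every blue 24 h library than in any white one. In red 24 h the left gene measured 878.4, 844.1 and 863.7 FPKM and the right gene 182.8, 504.1 and 652.6, with library 1 lowest for the right gene alone. The left gene's change in blue 24 h was 0.75 ± 0.09 on the log2 scale (SE, limma, adjusted p = 7.20e-06) and the right gene's 0.68 ± 0.31 (adjusted p = 0.0737), which became 0.68 ± 0.09 (adjusted p = 2.66e-07) without red 24 h library 1.

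In the comparisons with white, the pairs that moved together were not gathered on few scaffolds. In red 12 h, the share of a scaffold's close divergent pairs with both genes called in the same direction ran from 10.0% to 35.0% over the 29 scaffolds, with a median of 25.3%. Both genes lower was called in 0% to 17.5% of a scaffold's pairs, with the highest share on scaffold00080. The 30 same-direction pairs of blue against red at 24 h were less evenly spread. Of these, scaffold00043 held 7, scaffold00026 held 5 and scaffold00295 held 4. They were 4.76%, 4.00% and 4.35% of the close divergent pairs there, against a median of 0.719% over the scaffolds. Other pairs were not counted by scaffold, so whether this spread is particular to close divergent pairs is not shown. The number of these calls also rests on single libraries, as given above.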

How the data were processed

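The authors deposited FPKM per gene model and library, in 5 tables, and a table of gene models with exon positions. TopHat, TopHat2 2.0.4 and Cufflinks 2.0.4 were used, per the submitters' processing notes; the settings and the genome build are not given in the sources used here. TruSeq libraries were made from total RNA, per the labels' protocols. The deposited exon positions (1-based, another kind of value than expression) gave the gaps. Fragments were recovered from low FPKM values: within a tolerance of 0.1, 100% of values of up to 30 fragments were whole.

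Genes with at least 1 FPKM in at least 3 libraries (9601) were tested on log2(FPKM + 1) with limma 3.58.1 (R 4.3.3), with trend, 1 mean for each of the 5 groups over all 15 libraries, two-sided, Benjamini-Hochberg over all genes, threshold 0.05. The partner ratio was tested likewise over all 8212 adjacent pairs. For genes near 1 FPKM the added 1 shifts this ratio, and its change can differ from that of the FPKM ratio. Summaries used Python 3.11.15, numpy 2.4.6 and pandas 2.3.3. Both fits were tested on simulated data. Classes and correlations across pairs have no test.

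Members and lists were chosen with earlier results of these data known. IDs are printed for the leading rising and falling pair, ranked by the smallest absolute log2 change over both genes and 4 comparisons; the next 4 of each, 5 opposed pairs, 3 pairs per hour by the p of blue against red, and the pair with the highest lower partner are given by position. The reference table of 160 genes matched 0 IDs. No genome of these scaffolds was used here, so no intergenic sequence is shown. Alternatives changed the pseudocount (0.1), filter, scaling, samples fitted and fold minimum, added a replicate block, or left out each library.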

Additional observations from a re-analysis of the deposited data

Results flagged for a closer look

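Blue against red differed between 24 h and 12 h (limma's interaction, over all genes or all adjacent pairs) in parts of the pairs given by position; the interaction of the partner ratio passed in 34 of 2033 close divergent pairs (1.67%) and in 3.68% of all adjacent pairs. Values are log2 differences at 24 h less those at 12 h, and all rest on the red 24 h libraries. Pairs chosen by the p of blue against red were bound to differ at one hour, so their values are descriptions.

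For the right gene relative to the left, the difference was -1.36 ± 0.24 (SE, limma, adjusted p = 0.00799) in the opposed pair at scaffold00252, 70912, and -2.10 ± 0.26 (adjusted p = 0.000887) at scaffold00069, 387209, which was chosen at 12 h. Of the pairs chosen at 24 h, it was 0.78 ± 0.17 (adjusted p = 0.0258) at scaffold00324, 611355, -1.66 ± 0.26 (adjusted p = 0.00383) at scaffold00341, 356858, and 1.41 ± 0.18 (adjusted p = 0.000972) at scaffold00295, 1042856.

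Both genes of 3 falling pairs passed, all lower in blue relative to red at 24 h than at 12 h. The left and right genes differed by -1.08 and -1.11 at scaffold00026, 790551, by -1.44 and -1.55 at scaffold00295, 1102026, and by -1.82 and -1.15 at scaffold00295, 1119906. In the falling pair at scaffold00043, 283782, the right gene passed with -1.24.

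Single genes of other pairs passed as well. They were the left gene at scaffold00252, 70912 (0.77), the right gene at scaffold00043, 665999 (-1.52), and the left genes at scaffold00104, 363971 (1.27), scaffold00069, 387209 (1.14) and scaffold00341, 205648 (0.90). The right gene at scaffold00341, 356858, differed by -1.34 and the left gene at scaffold00295, 1042856, by -1.96. Limma's adjusted p for these 14 genes ran from 0.000815 to 0.0462.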

How the results depend on the processing

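A pseudocount of 0.1, no filter and a filter of 5 FPKM left all 12 counts of pairs within 1.5 times. Asking for 2-fold changes of both genes left 126, 87, 111 and 92 of 2033 close divergent pairs in the same direction against white. The order is red (12 h, then 24 h) and blue (12 h, then 24 h). Of all 8212 adjacent pairs, 559, 503, 563 and 492 were left, a larger share in each comparison. Of 2446 close convergent pairs, 113, 108, 119 and 101 were left. That share was larger than in close divergent pairs in red 24 h and smaller in the other comparisons. In blue against red at 12 h and 24 h, 0 and 5 close divergent pairs were left, beside 2 and 32 of all adjacent pairs. With equal medians, blue against red had 19 and 53 close divergent pairs called in the same direction at any fold change. With only the groups compared in the fit, red 24 h against white had 197 same-direction pairs and 685 changed ratios, blue against red had 135 and 291 at 12 h, and 0 and 0 at 24 h, where the fit over all groups had 30 and 214. The cause was not tested.

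Leaving out each library in turn, same-direction pairs ranged from 372 to 803 in red 12 h, 374 to 666 in red 24 h, 375 to 774 in blue 12 h and 362 to 743 in blue 24 h against white, and from 0 to 72 and 7 to 137 in blue against red. Changed ratios ranged from 778 to 1299, 1000 to 1338, 847 to 1333 and 798 to 1329 against white, and from 24 to 391 and 90 to 750 in blue against red. The highest counts came without red 24 h library 1 or, for changed ratios in red 24 h and both counts of blue against red at 24 h, library 3. Without any 1 of the red 12 h or blue 12 h libraries, blue against red at 12 h kept at most 1 same-direction pair.

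Scaling moved the median log2 change over all genes for red 24 h against white from -0.013 to 0.130 (equal medians) or -0.313 (equal sum without the 50 most abundant genes). Pairs called in the same direction there were 247 higher and 204 lower as deposited, 435 and 181, and 97 and 377. In blue 24 h against white, 316 and 146 became 164 and 204 under the equal sum, in blue 12 h 322 and 182 became 184 and 213, and in red 12 h 341 and 155 became 205 and 185. Under all 23 settings the share of opposite calls was lower in close divergent pairs than in each other class, in each comparison with white.

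Whether replicate numbers pair the libraries was not settled (correlations of same-numbered deviations from -0.0625 to 0.147, above 0.1 in 2 of 30, and 9 of 15 libraries closest to their own number). With the replicate block, same-direction pairs were 507, 465, 517 and 473 against white and 6 and 32 in blue against red, and changed ratios were 898, 1170, 962, 938, 56 and 185. Of 528 repeats for the 4 genes with printed IDs, 525 kept their direction and side of the threshold. Blue against red changed sign for scaffold00295.g8547 at 12 h (-0.01 without red 12 h library 2) and for scaffold00080.g2619 at 24 h (0.09 under the equal sum), both far from passing, and scaffold00080.g2620 passed at 12 h in 1 fit. Low levels limit scaffold00080.g2620 in white, with 4 to 17 fragments.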
